A study of Mus musculus with 18 samples.

Results

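The genes Plin1, Plin2, Cidec, Adipoq, Fabp4, Lep, Lipe, Pnpla2, Dgat2 and Fasn store fat, release it or carry signals out of the fat cell. They are 10 of the 49997 genes in the RefSeq table of the mouse build GRCm38.p6. Their CpG sites were taken by position, inside the gene body or within 5 kb of either end, and were kept where both pools of a tissue had at least 10 reads. That left 703 of 1894641 CpG sites measured in any tissue, of which 564 were measured in all 3 tissues. The rule uses gene names and positions, and the genes were picked with earlier results of these data known.

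The study asked what exposure to bisphenol A (BPA) before birth does to DNA methylation in the offspring. BPA is a monomer of polycarbonate plastic with weak oestrogen-like activity. In the BPA groups, C57BL/6 dams were gavaged daily with 5 mg per kg of BPA in corn oil between days 1 and 20 post conception, and in the control groups with the same oil without BPA. Gonadal adipose tissue, hypothalamus and liver came from their sons at 3 weeks, with 3 samples in each of the 6 groups, drawn from 4 BPA litters and 3 control litters. All dams ate a diet low in plant oestrogens and all offspring ate standard chow after birth. Which litter each sample came from is not known here.

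Fat is stored in a lipid droplet, a core of triglyceride inside a protein coat. Fasn builds fatty acids from acetyl units and Dgat2 joins them into triglyceride. Plin1 and Plin2 coat the droplet and Cidec fuses small droplets into large ones. Pnpla2 and Lipe cut stored triglyceride back to fatty acids, and Fabp4 carries these through the cell. Adipoq and Lep encode adiponectin and leptin, hormones that fat cells secrete. Methylation of a CpG is a stable mark on the DNA. Start regions dense in CpG are usually free of it, while most isolated CpGs carry it.

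In the deposited tables the 3 samples of each group are already merged. Each of the 6 pools therefore gives 1 level per site, with no error between animals. Intervals below are 95% and cover counting error only, and reads copied by PCR or shared by neighbouring CpGs make them too narrow. Each table numbers its pools, and the pool read as control was identified only from the order of the names in a label, so every BPA direction would turn round if that order were wrong. The member sites had a median depth of 96 to 145 reads in the BPA pools and 88 to 124 reads in the control pools, with 10 to 730 reads per site and pool. Levels come from whole tissue, where a change in the mix of cells and a change within cells cannot be told apart.

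The genes differed widely in level and tissues differed within genes. Over sites covered in all 6 pools, levels ran from 12.2% at Dgat2 in the BPA liver pool and 11.8% in the control liver pool to 93.8% at Plin2 in both adipose pools. These levels weight sites by their reads. Over the sites that each tissue covers, Dgat2 in liver stood at 19.8% and 17.9% in the BPA and control pools as a mean over sites, and at 26.7% in both with gene body sites alone. Fabp4, Plin1, Lep and Pnpla2 had their lowest level in adipose tissue in the BPA and the control pools alike. Lipe was lowest in adipose in the control pools and lowest in hypothalamus in the BPA pools, with overlapping intervals between those tissues. Plin2, Cidec, Adipoq and Dgat2 were lowest in liver, and Fasn in hypothalamus. For Adipoq the adipose and liver levels had overlapping intervals, as did adipose and hypothalamus for Plin2 and the control pools of adipose and liver for Fasn.

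**Figure D1:**
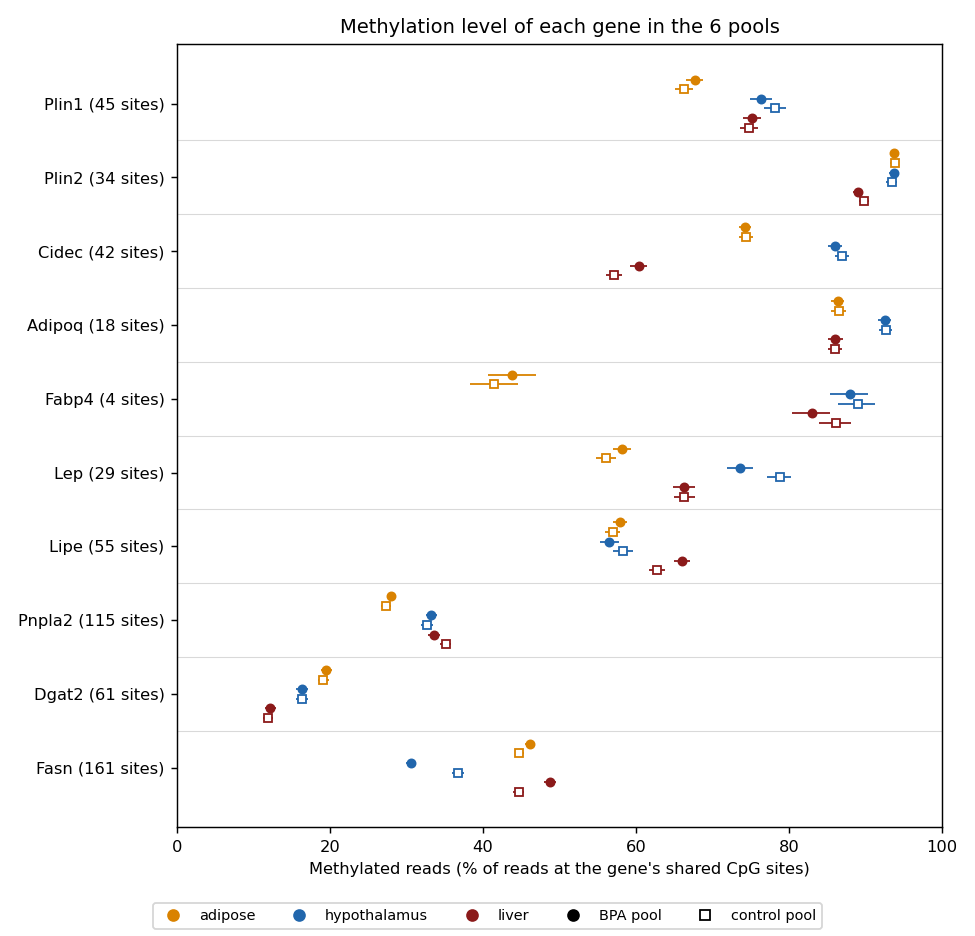
Methylation level of each gene (x axis, % of reads methylated at the sites covered in all 6 pools) in adipose tissue, hypothalamus and liver, with the BPA pool (filled circle) above the control pool (open square) and bars for 95% exact binomial intervals. Fabp4 stands near 44% and 41% in the adipose pools against 83% to 89% elsewhere, and Cidec is lowest in liver.

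Tested between the control pools by Fisher's exact test with Benjamini-Hochberg adjustment over all sites, 111 of 613 member sites (18.1%) differed between adipose and hypothalamus by at least 5 points at an adjusted p under 0.05, where 12.9% of all sites did. Adipose was the lower at 93 of them and the higher at 18, where 9.08% and 3.79% of all sites were called in those directions. Between adipose and liver 137 of 627 member sites (21.9%) differed, where 16.5% of all sites did, with adipose lower at 90 and higher at 47, beside 8.42% and 8.06% of all sites. Between the BPA pools the counts were 112 of 616 and 136 of 609, where 13.4% and 15.8% of all sites differed. Called sites common to both treatments numbered 83 and 97, and at each of them the direction was the same in both. These tests set pooled reads of one tissue against those of another and say nothing of the spread between animals.

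The start regions show how differently these genes are built. For 4 of them the 250 bases before the annotated start are given from RefSeq (GRCm38.p6), read 5′ to 3′ on the gene's own strand, with each CpG in capitals. They were chosen because their CpG content, or their methylation where it was measured, differed.
Fasn, chr11:120824548-120824797, minus strand: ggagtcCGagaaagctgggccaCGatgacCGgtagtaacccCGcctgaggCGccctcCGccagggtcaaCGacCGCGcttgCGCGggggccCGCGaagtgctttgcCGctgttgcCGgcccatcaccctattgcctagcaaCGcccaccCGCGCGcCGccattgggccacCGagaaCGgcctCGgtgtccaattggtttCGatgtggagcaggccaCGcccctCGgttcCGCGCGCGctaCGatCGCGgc
Pnpla2, chr7:141454938-141455187, plus strand: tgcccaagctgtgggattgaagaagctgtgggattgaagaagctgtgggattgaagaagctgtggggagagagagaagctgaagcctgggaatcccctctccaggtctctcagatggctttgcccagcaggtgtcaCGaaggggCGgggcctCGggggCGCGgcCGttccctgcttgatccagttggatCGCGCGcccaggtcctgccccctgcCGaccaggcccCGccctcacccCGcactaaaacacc
Lep, chr6:29059971-29060220, plus strand: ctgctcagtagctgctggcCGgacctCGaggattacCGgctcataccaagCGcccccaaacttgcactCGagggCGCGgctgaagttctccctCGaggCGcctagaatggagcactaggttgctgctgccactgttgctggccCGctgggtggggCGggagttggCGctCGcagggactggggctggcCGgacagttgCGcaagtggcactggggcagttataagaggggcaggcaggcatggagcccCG
Adipoq, chr16:23146286-23146535, plus strand: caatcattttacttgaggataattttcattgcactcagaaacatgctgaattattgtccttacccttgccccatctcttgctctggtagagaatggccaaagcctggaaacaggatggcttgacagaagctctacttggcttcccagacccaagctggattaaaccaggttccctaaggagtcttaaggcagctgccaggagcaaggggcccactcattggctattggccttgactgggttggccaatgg

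Counted with the first 50 bases after the start, the windows of 300 bases held 39 CpGs at Fasn, 18 at Pnpla2, 19 at Lep and none at Adipoq. Of 32851 RefSeq promoters, 94.6% held at least 1 CG, and 95.5% had fewer of them than Fasn. The MspI site CCGG, where the DNA was cut, stood in 52.8% of all promoters and in 6 of the 10 promoters matched to 8 of the genes. With no CpG in the window, Adipoq could give no level there. Pnpla2 and Lep have almost the same number of CpGs in the window but differed in coverage. At Pnpla2 only 2 of the 18 were measured, both after the start, so none of its CpGs printed above was read. At Lep 17 sites of the window were measured in adipose.

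At Pnpla2 the 2 sites measured in the window held 0 methylated reads of 127 in the BPA adipose pool and 0 of 140 in the control adipose pool, which allows levels of up to 2.36% and 2.14% if 3 methylated reads of the total are taken as the limit, here and below. The same 2 sites gave 0 of 28 reads in the BPA and 0 of 31 in the control hypothalamus pool, which allows up to 10.7% and 9.68%. They gave 0 of 76 in the BPA and 0 of 74 in the control liver pool, which allows up to 3.95% and 4.05%. At Lep the window was partly methylated. It stood at 54.4% and 55.7% in the BPA and control adipose pools, 70.2% and 75.1% in those of hypothalamus, and 57.4% and 56.8% in those of liver, over 17 sites in adipose and 15 in the other tissues. At Fasn 26 sites in adipose and 15 in the other tissues stayed between 0.286% and 0.719% in all 6 pools. At the upstream one of the 2 Lipe starts 12 sites were covered in adipose alone, with 0 methylated reads of 198 in the BPA pool and 0 of 188 in the control pool, which allows up to 1.52% and 1.6%.

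Among the droplet proteins, Plin1 (chr7:79721164-79732904) carried less methylation in adipose tissue than elsewhere when summed over its shared sites, though not in every stretch. At 8 sites about 10 kb into the gene, the level was 74.8% and 72.4% in the BPA and control adipose pools, 92.2% and 90.3% in those of hypothalamus, and 88.7% and 87.8% in those of liver. Adipose was lower than hypothalamus at 7 of the 8 sites between control pools and lower than liver at 6. The clearest single site against hypothalamus, 79725711, had 41.4% of 575 reads methylated in the BPA adipose pool and 48.9% of 450 in the control adipose pool. The BPA and control hypothalamus pools had 71.5% of 463 and 76.3% of 435. Another 8 sites, 79723402 to 79723931, stood at 74.8% and 76.1% in the BPA and control adipose pools and 75.6% and 77% in those of liver. None of them was called between adipose and liver.

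Plin2 (chr4:86626910-86670217) had 94% and 93.8% methylation over its body sites away from the start in the BPA and control adipose pools, and 89.1% and 90% in those of liver. A lone body site measured in adipose only, 86631714, stood lower, at 42.9% of 14 reads in the BPA pool and 30% of 10 in the control pool. The 4 sites near the start included 1 covered in all 6 pools, at 0% to 6.9%. The tissue difference lay in a run of 20 shared sites deep in the gene, at 95.1% and 94.9% in the BPA and control adipose pools and 86.8% and 87.6% in those of liver. Adipose was higher than liver at 6 of its 22 sites tested between control pools and lower at 1. Its clearest site, 86637920, stood at 96.9% and 94.9% in the BPA and control adipose pools, 92.4% and 91.1% in those of hypothalamus, and 62.9% and 60.6% in those of liver.

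Cidec (chr6:113424634-113435760) held the member site with the smallest p between the control pools of adipose and another tissue, though not the largest difference in points. Between 113428093 and 113428380, 6384 to 6671 bp after the nearer start, 13 sites had 77.8% and 80.1% methylation in the BPA and control adipose pools, 93.2% and 94.5% in those of hypothalamus, and 27.8% and 24.3% in those of liver. The lowest adipose site stood at 56.7% and the highest liver site at 36.6%, so adipose and liver did not overlap. Adipose was higher than liver at 13 of 13 sites in both treatments, by 61.9 points at 113428250 between the control pools (interval 56.6 to 66.6, adjusted p = 2.19e-80 by Fisher's exact test). It was lower than hypothalamus at 12 of 13 sites between BPA pools and at 11 between control pools. At 13 other sites, 9080 to 9810 bp after that start, the order differed. The level there was 67.7% and 65.7% in the BPA and control adipose pools, 70.1% and 74.2% in those of hypothalamus, and 82.7% and 78.9% in those of liver.

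Of the genes that make fat, Fasn (chr11:120805958-120825166, minus strand) passed from no methylation at its start to nearly full methylation inside the gene. Over the 95 sites around the start that all 6 pools cover, the level was 0.578% and 0.798% in the BPA and control adipose pools, 0.888% and 0.45% in those of hypothalamus, and 0.84% and 0.781% in those of liver. From 7934 to 8370 bp into the gene, 15 sites stood between 92.2% and 94% in all 6 pools. The tissues separated in between. Across 9 sites at 120820925 to 120821077, 3470 to 3622 bp from the start, the level was 77% and 68.2% in the BPA and control adipose pools, 49% and 49.7% in those of hypothalamus, and 94% and 89.2% in those of liver.

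**Figure D2:**
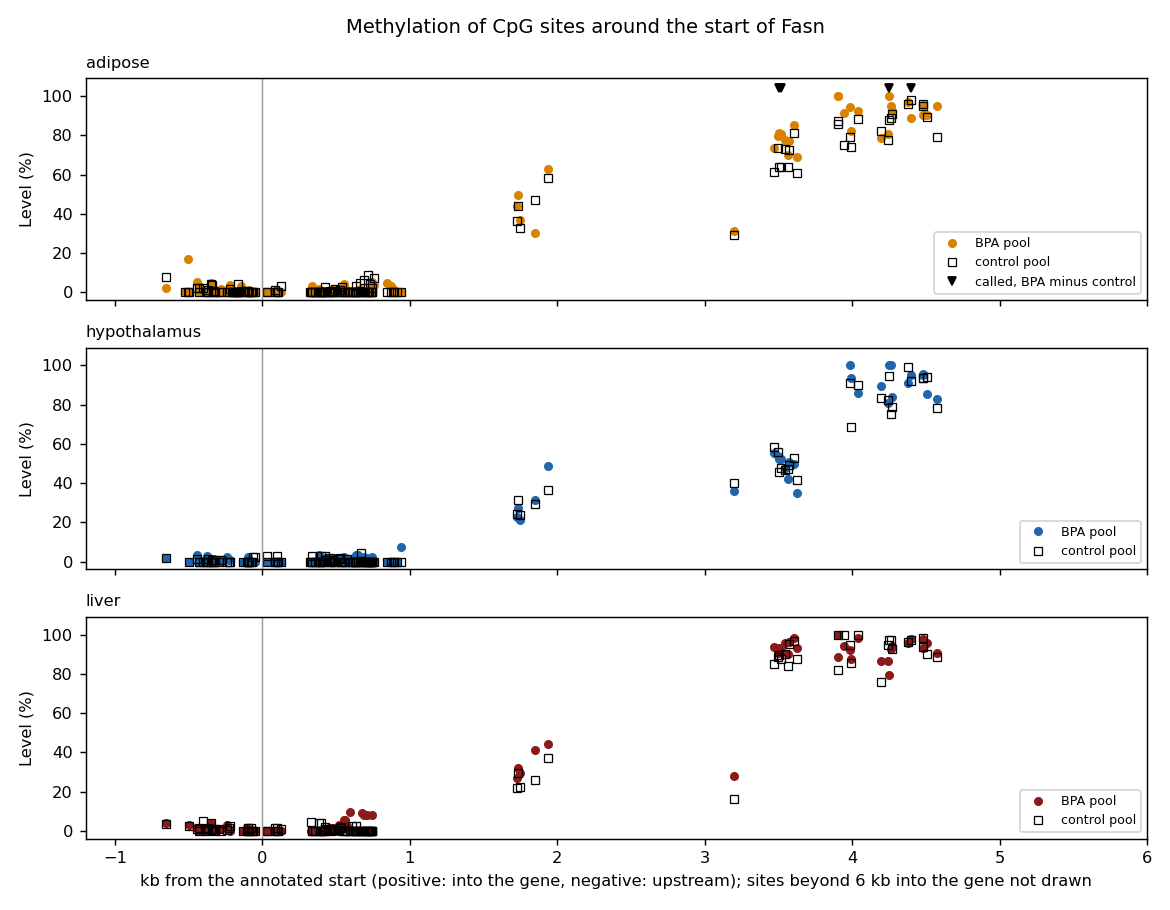
Methylation level of CpG sites (y axis, %) by distance from the annotated start of Fasn (x axis, kb), with adipose tissue, hypothalamus and liver from top to bottom, BPA pools as filled circles and control pools as open squares. All tissues are near 0 around the start, and at the 9 sites 3470 to 3622 bp into the gene hypothalamus is at 49% and 49.7% while liver is at 94% and 89.2%.

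Dgat2 (chr7:99153663-99182713) showed different tissue patterns at neighbouring stretches. At 8 sites between 99155614 and 99156114 the level was 10.8% and 11% in the BPA and control adipose pools and 6.24% and 5.47% in those of liver, against 36.8% and 40.1% in those of hypothalamus. At 4 sites less than 1 kb further on, adipose stood at 82.8% and 82.9% and hypothalamus at 80.3% and 79.4%, while the liver pools stood at 46.6% and 42.4%. Adipose was lower than hypothalamus at 6 of the 8 sites of the first stretch and higher than liver at all 4 of the second, between control pools. At the other end of the gene, 34 shared sites were between 0.3% and 0.8% in all 6 pools.

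Of the enzymes that release fat, Pnpla2, the lipase that makes the first cut, was lower in adipose than in liver at 22 of 126 sites and higher at 5 between BPA pools, and lower at 22 of 134 and higher at none between control pools. These called shares were 21.4% and 16.4%, beside 15.8% and 16.5% of all sites. Against hypothalamus Pnpla2 was lower at 14 of 128 and 12 of 132 sites in those treatments and higher at none. Those shares, 10.9% and 9.09%, lay below the 13.4% and 12.9% of all sites. At 141459204, inside the gene, it had 75.4% and 76.7% in the BPA and control adipose pools, 95.3% and 91.8% in those of hypothalamus, and 96% and 95.7% in those of liver. Of its 139 tested sites in adipose, 86 also lie in a neighbouring gene (Cracr2b or Gm10575). They include the site with the smallest p in both tissue comparisons. At that site, 141461517, past the end of Pnpla2 and inside Cracr2b, the level was 30% and 22.7% in the BPA and control adipose pools, 60.9% and 58% in those of hypothalamus, and 60.1% and 66.5% in those of liver. Lipe, hormone-sensitive lipase, was lower in adipose than in liver at 18 of 70 sites between BPA pools and at 11 of 69 between control pools. No Lipe site was higher there, and the called shares were 25.7% and 15.9%, beside 15.8% and 16.5% of all sites. Against hypothalamus it was lower at 7 of 58 and at 13 of 63 sites in those treatments, and higher at none and at 1. Those shares, 12.1% and 22.2%, stood beside 13.4% and 12.9% of all sites. Of the 85 adipose sites of Lipe, 76 lie inside 4732471J01Rik as well. Its site 25385153 stood at 70.8% and 70.1% in the BPA and control adipose pools, 91.4% and 93.5% in those of hypothalamus, and 89.4% and 88.5% in those of liver. Its site 25377780, beyond the end of the gene, set liver apart, with 26.2% and 29.2% in the adipose pools, 30.7% and 28% in those of hypothalamus, and 56.9% and 55.3% in those of liver.

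Fabp4, Adipoq and Lep encode the fatty acid carrier and the adipokines. Fabp4 (chr3:10204342-10208616) was covered at only 4 sites, all inside the gene and within 154 bp of each other. They stood at 42.8% to 44.7% in the BPA adipose pool and 39.7% to 45.6% in the control adipose pool, against 86.9% to 89.1% and 85% to 93.9% in the hypothalamus pools and 82.7% to 84.2% and 82.1% to 87% in the liver pools. Adipose was lower at 4 of 4 sites in every tissue comparison, by 48.7 points at 10206063 between the control pools of adipose and hypothalamus (interval 41.7 to 54.8, adjusted p = 1.55e-32 by Fisher's exact test). The 4 sites lie close enough to share fragments and are not independent.

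Adipoq (chr16:23146536-23157968) differed most at 2 sites, 23144548 and 23144676, upstream of its start. There the level was 51.7% and 55% in the BPA and control adipose pools, 82.6% and 80.8% in those of hypothalamus, and 20.9% and 21.6% in those of liver. Adipose lay between the other tissues at both sites and differed from each in both treatments. At 12 sites over 10 kb into the gene, all 6 pools stood between 93.5% and 95.6%.

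Lep (chr6:29060221-29073876) was lower in adipose than in hypothalamus at 17 of 29 sites and higher at 2 between BPA pools, and lower at 18 and higher at none between control pools. These called shares were 65.5% and 62.1%, beside 13.4% and 12.9% of all sites. Against liver it was lower at 9 of 29 sites in both treatments, and higher at none between BPA pools and at 1 between control pools. Those shares were 31% and 34.5%, beside 15.8% and 16.5% of all sites. Its 6 sites from 29065353 to 29065607, about 5 kb into the gene, had 38.8% and 25.5% in the BPA and control adipose pools, 69.6% and 79.2% in those of hypothalamus, and 66.2% and 70.5% in those of liver. The single sites ran from 23.6% to 49.3% and 16.8% to 33.8% in the adipose pools. At all 6 sites the control adipose pool was lower than both other control pools past the threshold.

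**Figure D3:**
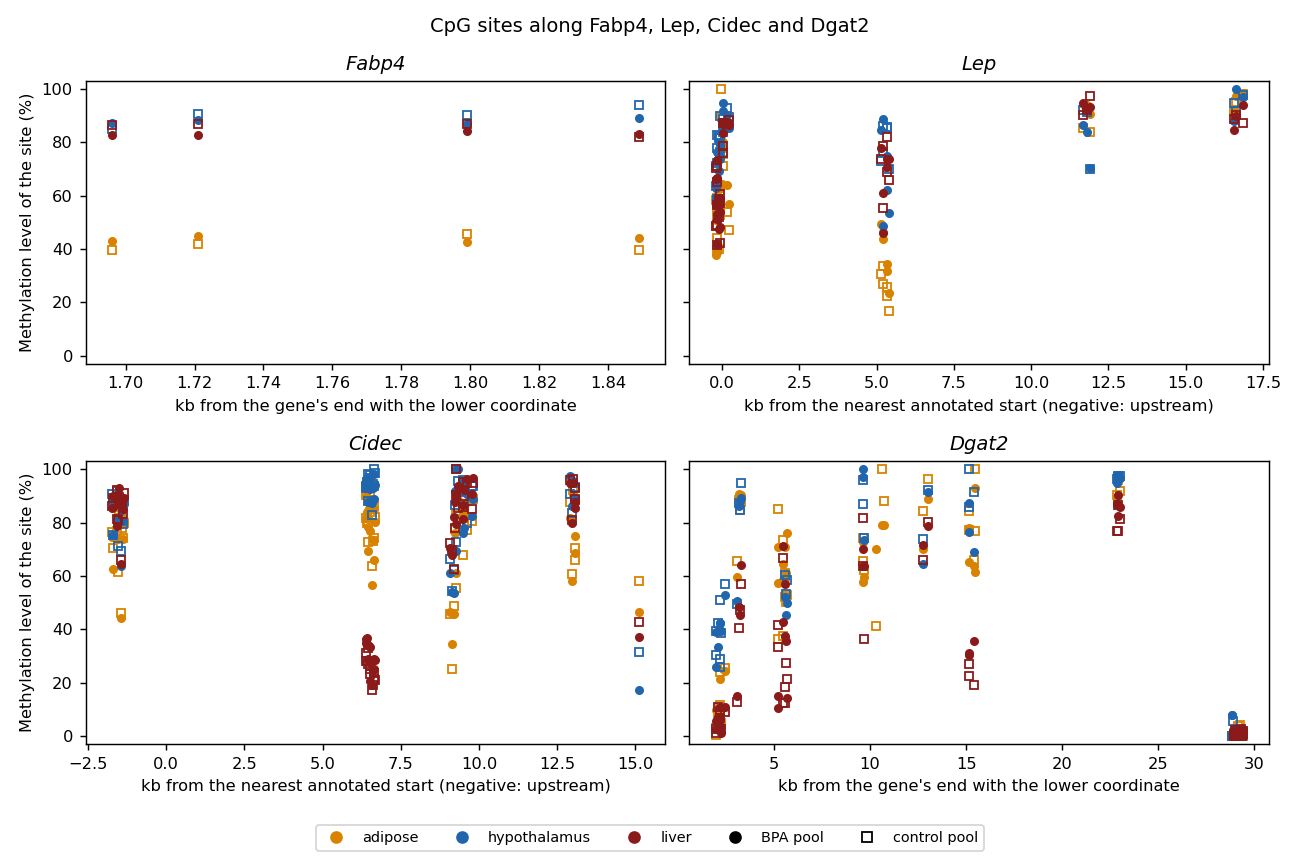
Methylation level of each CpG site (y axis, %) along Fabp4, Lep, Cidec and Dgat2 (x axis, kb), coloured by tissue, with BPA pools as filled circles and control pools as open squares. Fabp4 and the stretch of Lep 5 kb into the gene are low in adipose tissue, while 13 sites of Cidec 6384 to 6671 bp after its start are low in liver.

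Set against control, BPA adipose differed at few sites of these genes. By the deposited p-values of Fisher's exact test, adjusted here over all sites, 8 of 700 member sites (1.14%) were called in adipose, where 0.535% of all tested sites were. The level was higher in the BPA pool at 5 sites and lower at 3, where 0.252% and 0.283% of all sites were called in those directions. In hypothalamus 0 of 603 member sites were called and in liver 0 of 604, where the shares of all sites were 0.00599% and 0.0259%. At an unadjusted p under 0.05, 85, 21 and 26 member sites passed in adipose, hypothalamus and liver, which is 12.1%, 3.48% and 4.3% beside 10.1%, 3.41% and 4.21% of all sites.

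Over all sites, squared differences between the adipose pools averaged 1.91 times what counting error alone gives. With p-values that allow for that excess, 0 of the 8 sites kept their call, and 40 sites were called in the whole adipose table.

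Of the 8 called sites, 4 lay in Fasn, within 1 kb of each other. At 120821044 the BPA adipose pool had 81.3% of 262 reads methylated and the control adipose pool 63.9% of 219, a difference of 17.4 points (interval 9.4 to 25.2, adjusted p = 0.0131 by Fisher's exact test). The neighbouring site 120821034 had 80.8% and 64% in those pools. At all 9 sites of the stretch around them the BPA adipose pool was above the control pool, as it was in liver, where none was called. In hypothalamus the BPA pool was above at 4 and below at 5.

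The other called Fasn sites did not share a direction. At 120820148 the level was 89% of 282 reads in the BPA adipose pool and 97.8% of 279 in the control pool, and at 120820301 it was 100% in the BPA adipose pool and 87.7% in the control pool. In hypothalamus and liver these 2 sites were not called. Their levels at 120820301 were 100% and 94.7% in the BPA and control hypothalamus pools and 79.5% and 97.4% in those of liver.

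The remaining 4 called sites lay in different genes. Plin1 site 79723717, inside the gene, had 71.5% of 137 reads methylated in the BPA adipose pool and 48.3% of 118 in the control adipose pool, a difference of 23.2 points (interval 11.2 to 34.4, adjusted p = 0.0406 by Fisher's exact test). It was the only one of the 8 sites in its stretch above control in the BPA adipose pool, with the other 7 below. Plin2 site 86637006 had 93.5% in the BPA pool and 99.6% in the control pool (adjusted exact p = 0.0325). The stretch of 9 sites around it went the other way, with 6 above control in the BPA adipose pool and 3 below. Summed over that stretch, the level was 92.85% in the BPA adipose pool and 89.18% in the control adipose pool. Dgat2 site 99176568 had 86.7% and 97.2% in those pools (adjusted exact p = 0.039), and its stretch of 4 sites divided 2 above control and 2 below. A site in the 5 kb after Pnpla2, at 141464926 inside Cracr2b and Gm10575, had 14.9% of 181 reads methylated in the BPA adipose pool and 2.4% of 208 in the control pool (adjusted exact p = 0.00783). Its stretch of 27 sites divided 19 above control and 8 below in adipose. None of the 4 called sites passed in hypothalamus or liver, and for none did the test of the difference between tissues pass adjustment. Over all member sites that test passed at 0 of 600 between adipose and hypothalamus, at 1 of 603 between adipose and liver (Fasn site 120822702) and at 0 of 565 between hypothalamus and liver. The shares of all sites that passed were 0.0266%, 0.0493% and 0.00375%.

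**Figure D4:**
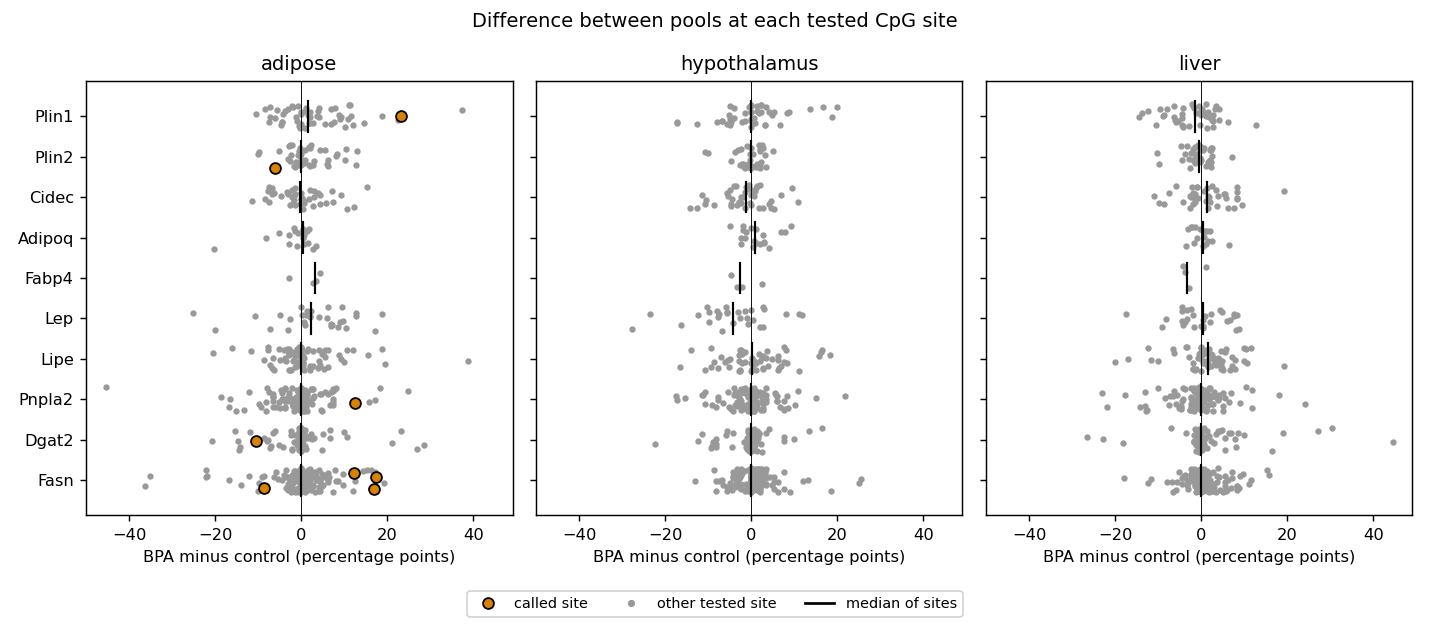
Difference in methylation, BPA minus control in percentage points (x axis), at each tested CpG site of each gene in adipose tissue, hypothalamus and liver, with the median of a gene's sites as a black line and called sites as large coloured points. The 8 called sites are all in adipose and include 4 of Fasn, while medians stay within 5 points of 0 in every panel.

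Where no site was called, the smallest p belonged to Lipe in hypothalamus and Cidec in liver. Lipe site 25396415, within 1 kb of a start, had 18.4% of 76 reads methylated in the BPA hypothalamus pool and 0% of 55 in the control pool (adjusted p = 0.65 by Fisher's exact test). Cidec site 113425555 had 82% of 100 reads in the BPA liver pool and 62.7% of 110 in the control liver pool (adjusted exact p = 0.639). Cidec, Adipoq, Fabp4, Lep and Lipe had no called site in any tissue.

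Lep came closest in adipose. At 29065353 the BPA adipose pool had 49.3% of 205 reads methylated and the control pool 30.6% of 147 (difference 18.7 points, interval 8.28 to 28.3), which missed the threshold at an adjusted p of 0.0637 by Fisher's exact test. All 6 sites of that stretch had a level above control in the BPA adipose pool, by 6.8 to 18.7 points, and 4 had an unadjusted p under 0.05. In hypothalamus 4 of the 6 were below control and in liver 3. Over the whole gene the BPA pool was above control at 23 of 31 sites in adipose and below it at 21 of 29 in hypothalamus, while liver divided 15 above and 14 below.

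The summed level of Lep was 58.2% in the BPA adipose pool and 56.3% in the control adipose pool. In hypothalamus it was 73.6% for BPA and 78.8% for control, a difference of -5.16 points (interval -7.44 to -2.88). An unadjusted p under 0.05 was found at 7 of 31 sites in adipose (6 of them above control) and at 5 of 29 in hypothalamus (all below). These shares were 22.6% and 17.2%, beside 10.1% and 3.41% of all sites in those tissues. No site passed adjustment in either tissue. Of the member sites, 29065414 had the smallest p for a difference between adipose and hypothalamus, with 43.9% and 26.8% in the BPA and control adipose pools and 48.6% and 76.3% in those of hypothalamus (Wald test of log odds ratios, with an adjusted p of 0.204).

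**Figure D5:**
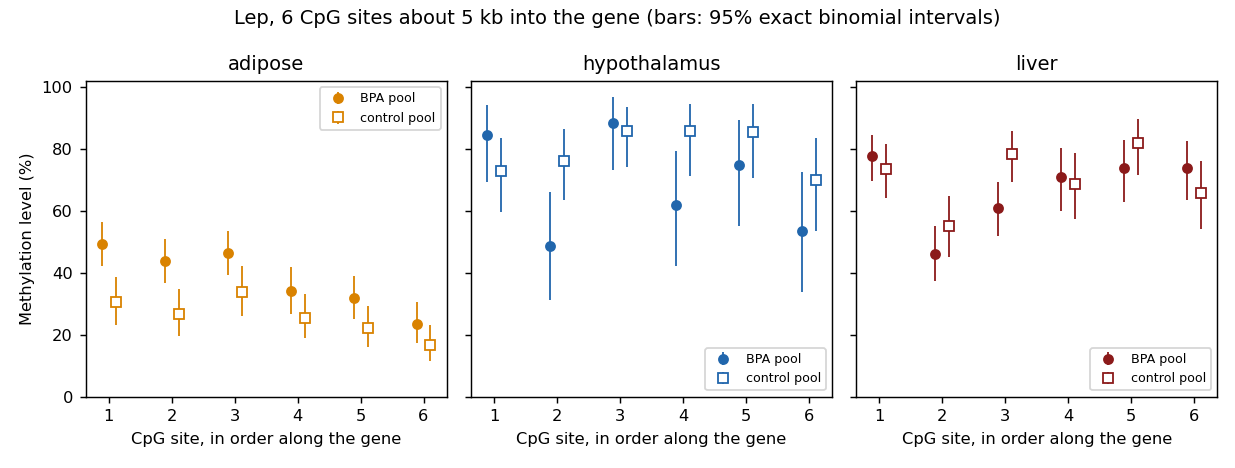
Methylation level (y axis, %) at 6 CpG sites of Lep about 5 kb into the gene, in order along the gene (x axis), in adipose tissue, hypothalamus and liver, with BPA pools as filled circles, control pools as open squares and bars for 95% exact binomial intervals. All 6 sites lie above control in the BPA adipose pool, and at each site adipose lies below the other tissues of the same treatment.

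Summed over whole genes, differences between pools were small. In adipose they ran from -0.324 to 2.27 points, and the interval lay above 0 for Plin1, Lep, Lipe and Fasn. In liver it lay above 0 for Cidec, Lipe and Fasn and below 0 for Fabp4 and Pnpla2, from -3.17 to 4.13 points. The highest was Fasn, whose mean over sites differed by 0.50 points. In the same liver pools all 10 hepatocyte marker genes had a higher level in the BPA pool, summed to 50.4% against 46.5% in the control pool, with 0 of 147 sites called, and their part in the liver values was not tested. In hypothalamus it lay below 0 for Lep and Fasn. With every site weighted equally, 6 of 10 genes kept their sign in adipose, 3 in hypothalamus and 9 in liver.

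Fasn in hypothalamus was such a reversal. By reads its level was 30.05% in the BPA pool and 36.3% in the control pool (-6.25 points), but the mean over its 169 sites was 31.2% and 30.8%. Of its reads, 60.4% in the BPA pool and 51.6% in the control pool lay at the nearly unmethylated sites within 1 kb of the start. Over the other 66 sites the level was 74.5% in both pools. In liver 43.6% of Fasn reads in the BPA pool and 47.2% in the control pool lay near the start, and the level over the other 70 sites was 86.1% and 84.0%.

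Other genes of the same pathways were set beside these. Over 53 genes for droplets, fat synthesis, lipolysis and uptake, and adipokines, 18 of 4244 sites (0.424%) were called in adipose, 10 higher and 8 lower in the BPA pool, in 12 genes. None of 3525 sites in hypothalamus and 3591 in liver was called. In the adipokine list 6 of 681 sites were called, 1 higher and 5 lower, of which 3 lay in Adipor2, an adiponectin receptor. Its leading site had 28% methylation in the BPA adipose pool and 56.4% in the control adipose pool. Lepr, the leptin receptor, had 1 called site at 19.7% in the BPA adipose pool and 56% in the control pool, and Cfd, which encodes adipsin, 1 at 73.9% and 90.6% in those pools. Rbp4, the retinol carrier, had 1 site in the other direction, at 66.7% in the BPA pool and 37.8% in the control pool.

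In the list for lipolysis and uptake all 5 called sites of 1034 were higher in the BPA pool. Acsl1, which activates fatty acids, and Mgll, which cuts monoglycerides, had 2 each, and Adrb3, the beta-adrenergic receptor of fat cells, had 1, at 46.9% in the BPA adipose pool and 29% in the control pool. The synthesis list had 5 called sites of 1886, with 2 higher and 3 lower. They lay in Acacb (3 sites) and in Lpin2 and Acly (1 each), and the Lpin2 site stood at 54.2% and 91.2% in the BPA and control adipose pools. The droplet list had 2 of 643, both higher, in Ldah and Aqp7. The called shares were 0.881% for adipokines, 0.484% for lipolysis and uptake, 0.265% for synthesis and 0.311% for droplets, beside the 0.535% of all sites.

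Markers of other cells that gonadal fat can hold were read in the same way. In adipose, 11 of 903 sites of 10 endothelial genes were called (3 higher, 8 lower in the BPA pool), 2 of 329 of 10 leukocyte genes (both lower), 3 of 578 of 7 mesothelial and fibroblast genes, and 0 of 147 of 8 epididymis and testis genes. Of lists for cells of the other tissues, 3 of 173 hepatocyte sites (all higher), 6 of 1543 neuron sites and 8 of 513 oligodendrocyte and astrocyte sites (all lower) were called in adipose. Single genes held many of these calls, with 5 of the endothelial sites in Pecam1 and 4 of the oligodendrocyte and astrocyte sites in Mbp, all lower. The called shares were 1.22% for endothelial, 0.608% for leukocyte, 0.519% for mesothelial and fibroblast, 1.73% for hepatocyte, 0.389% for neuron and 1.56% for oligodendrocyte and astrocyte genes, beside 1.14% of the member sites and 0.535% of all sites. Gene levels of the endothelial list ran from 22.1% to 91.1% in the BPA adipose pool and from 21.9% to 92.1% in the control pool. Of the leukocyte list they ran from 4.89% to 88.8% and from 8.49% to 88.7%. The 10 hepatocyte genes were less methylated in liver, with 50.4% and 46.5% in the BPA and control liver pools against 79.5% and 78.6% in those of adipose tissue, while the 8 neuron genes had 43.5% and 43.7% in the BPA and control adipose pools, 41.9% in both hypothalamus pools, and 42.3% and 41.6% in the BPA and control liver pools. The part of other cells in the member results was not tested.

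The genes nearest to each member in its 6 pool levels were found among 16695 genes, by the Euclidean distance in percentage points. Dgat2 was closest to Ppara, at a distance of 1.18 points, Adipoq to Spats1 at 1.6 and Plin2 to Fcrl5 at 1.76. Pnpla2 was closest to Gm52351 at 2.01, Lipe to U2af1l4 at 2.55 and Plin1 to Arhgef10l at 2.89. Fasn was closest to Sar1b at 3.55, Cidec to Fbp1 at 3.91 and Lep to Glrp1 at 4.57. Fabp4 had too few sites to be compared.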

How the data were processed

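Reduced representation bisulfite sequencing reads DNA cut at CCGG by MspI, in which bisulfite marks unmethylated cytosines. Per the submitters' processing notes reads were aligned with BSMAP to GRCm38 (mm10). Its version and any removal of PCR copies are not given in the sources used here. The authors deposited 1 table per tissue with, for each CpG and pool, the read count (reads covering the site) and the fraction of reads methylated. They also deposited a Fisher's exact p-value for each site and a credible difference, a score of their own that served only as an alternative.

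Recomputing the p-value from counts and fractions gave a value within 1% at all member sites. Benjamini-Hochberg adjustment ran over every nuclear site that had 10 or more reads in both pools. A call needs a difference of 5 points or more and an adjusted p below 0.05. Of 723, 648 and 646 member sites listed in adipose, hypothalamus and liver, 700, 603 and 604 passed the minimum. Pools of different tissues were set against each other with Fisher's exact test, and effects between tissues by a Wald test of log odds ratios with 0.5 added to each cell, adjusted likewise. All tests are two-sided. Levels have Clopper-Pearson and differences Newcombe intervals. Code was tested on simulated data (Python 3.11.15, SciPy 1.17.1, statsmodels 0.14.6).

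Gene positions and start sequences came from RefSeq. The tables used hold no exons or introns, and give no strand or start sequence for Fabp4 and Dgat2. The members and lists were chosen with earlier results of these data known. By rule, every called site of a gene was to be named, up to 6 per gene and tissue by smallest p, and the leading uncalled site elsewhere. The stretches of sites (gaps of up to 500 bp, or 50 bp for the Fasn stretch) were chosen after their values were seen and are descriptions. For each pathway list, up to 4 genes with most called sites were named, and of the marker lists only Pecam1 and Mbp were. Likeness used genes with at least 10 sites in all 6 pools. The design foresaw values per sample as an alternative, and none was used here.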

Additional observations from a re-analysis of the deposited data

Results flagged for a closer look

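One site of Fasn differed between tissues in its BPA difference. At 120822702, 1845 bp into the gene, the level was 30.3% of 195 reads in the BPA adipose pool and 47.1% of 187 in the control adipose pool, and 41.1% of 163 reads in the BPA liver pool and 25.8% of 159 in the control liver pool. The Wald test of the difference between adipose and liver gave an adjusted p of 0.0318 over all sites. It was the only one of 603 member sites to pass that test, where 0.0493% of all sites passed. Neither difference was called within its own tissue, with adjusted p of 0.0819 in adipose and 0.796 in liver by Fisher's exact test. In hypothalamus the level was 31.2% in the BPA pool and 29.3% in the control pool. The 4 other sites of the stretch had levels above control in the BPA pool in adipose and in liver alike. None of 600 member sites passed between adipose and hypothalamus, and none of 565 between hypothalamus and liver.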

How the results depend on the processing

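Counts of called member sites were within 1.5 times of those given under coverage minimums of 5, 20 and 30 reads, with gene bodies alone or with 2 kb around them, and with a minimum difference of 0 or 10 points. Leaving out the deepest 0.1% of sites was tried for the BPA counts alone. The count in adipose was 6 to 8 under these, and 0 in hypothalamus and in liver. Those for adipose minus hypothalamus and adipose minus liver were 84 to 114 and 108 to 138. With p-values scaled by the excess over counting error, 0 member sites were called in adipose. By the authors' deposited credible difference of at least 5 points, 29 member sites passed in adipose, 4 in hypothalamus and 7 in liver, which is 4.14%, 0.663% and 1.16% beside 2.99%, 0.858% and 0.995% of all sites. Between 4 and 6 genes were lowest in adipose under the alternatives tried. Weighting sites equally moved 49 of 60 gene levels beyond their counting interval, and keeping gene bodies alone moved 38. No paired analysis was possible because the files give pooled values without samples, and leaving out a replicate could not be run for the same reason. Depth limits single sites most in hypothalamus, where the median of the smaller of both pools' coverage was 80 reads at member sites.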
